A study of Mus musculus with 27 samples.

Results

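Zeb1 and Zeb2 were followed across 3 genotypes of mK4 cells, a mouse line derived from the metanephric mesenchyme, the embryonic tissue that forms the nephrons of the kidney. The members were the rows carrying those symbols in a table of 24953 genes, and both were found, so the description covers 2 genes of 24953. RNA-seq had been done on 3 libraries each of the parental line (control), of Runx1KO cells and of ZebDKO cells. Runx1KO cells derive from that parental line and lack exon 3 of Runx1, the exon with the start codon, after Cas9 editing. ZebDKO cells derive from it too, after editing with guides against exon 2 of Zeb1 and exon 1 of Zeb2. ATAC-seq, which finds open chromatin, and Runx1 and Runx2 ChIP-seq, which find bound sites, covered control and Runx1KO cells with 3 samples per group, and no such data of ZebDKO cells were analysed here. Several clones of each knockout were obtained, but how many stand behind its 3 libraries is not given in the sources used here, so clone and genotype cannot be told apart, and p-values measure the spread between these libraries.

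Zeb1 and Zeb2 encode large zinc finger transcription factors with a homeodomain between the zinc finger clusters. They bind E-box sequences such as CAGGTA and CAGGTG and, with corepressors of the CtBP family, repress epithelial genes during epithelial to mesenchymal transition. MicroRNAs of the miR-200 family and Grainyhead-like and Ovo-like factors hold them down in epithelia, and TGF-beta signalling raises them in mesenchymal cells. Runx1 and Runx2 are DNA-binding factors of the Runt family that pair with Cbfb, and the comparison of Runx1KO with control asks how Zeb levels move without Runx1.

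On the mm9 build (NCBIM37), Zeb2 (ENSMUSG00000026872.8) lies on the minus strand of chromosome 2 from 44839154 to 44972915. The ZebDKO guides match in introns on either side of its first coding exon, whose coding part runs from 44965536 to 44965608. With breaks 3 bases from the PAM, the motif next to a guide target that Cas9 needs, they would remove 333 bases from 44965391 to 44965723, of which 142 are exonic and 73 coding. The guides are shown because they mark what the ZebDKO genotype changes in Zeb2, with the PAM in capitals.
Zeb2 guide 1, chr2:44965374-44965393, plus strand: ccggtccagcggccgcgcgtGGG
Zeb2 guide 2, chr2:44965721-44965740, minus strand: cggcccgcgcgcgtttcaatGGG
The lost stretch is 0.924% of the 15368 annotated exonic bases of Zeb2. A whole-gene TPM, a transcript level scaled for transcript length and for the library total, therefore still counts nearly all of either transcript when the exon is gone, and it does not read protein.

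Zeb1 (ENSMUSG00000024238.5) lies on the plus strand of chromosome 18 from 5591858 to 5775465. Its guides match at 5704913 to 5704932, in an intron, and at 5705209 to 5705228, in a coding exon that runs from 5705041 to 5705241. Breaks at the same place would remove 296 bases, of which 185 are coding, or 1.9% of the 9712 annotated exonic bases of Zeb1.

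Each library's TPM values summed to between 999985 and 999998 after rounding to 1 decimal, and TPM keeps no record of read depth. Of 12 markers of metanephric mesenchyme, 7 averaged at least 1 TPM in control cells, among them Pax2, Hoxa11, Osr1 and Eya1, while Six2, Cited1, Wt1, Hoxd11 and Meox1 stayed below 1 TPM in every library. Their summed level ran from 725.6 to 733.5 TPM in control, from 753.4 to 825.1 in Runx1KO and from 632.9 to 661.8 in ZebDKO. Of 4 endothelial markers, Pecam1, Kdr and Tek stayed below 1 TPM in every library, while Cdh5 averaged 3.733 TPM in control, 1.133 in Runx1KO and 4.667 in ZebDKO and was called lower in Runx1KO (log2 fold change -1.14). Of 4 blood cell markers, Ptprc was at 0 in every library, Gata1 averaged 0.3667, 0.4 and 0.6667 TPM and Cd68 2.167, 2.033 and 2.867 TPM. Spi1, a myeloid factor, averaged 0.0333 TPM in control, 25.27 in Runx1KO and 9.267 in ZebDKO. The summed level of 6 markers of ureteric and nephron epithelium ran from 40.3 to 41.5 TPM in control, from 390.3 to 399.9 in Runx1KO and from 223.5 to 227.9 in ZebDKO, led by Cdh16 in both knockouts, with Ret at 0 in every library and 2, 3 and 2 of the 6 at 1 TPM or more. That of 4 stromal markers ran from 143.8 to 156.4, from 92.4 to 97.3 and from 82.2 to 86.0 TPM. The part of these lists in the changes of Zeb1 and Zeb2 was not tested. Whole-gene Runx1 TPM averaged 17.4 in control and 29.63 in Runx1KO cells, so it does not show the exon deletion. The study's methods give 1 RNA extraction kit for the 3 genotypes. Whether their libraries were made or sequenced together is not given in the sources used here, so batch and genotype cannot be told apart.

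Zeb1 RNA was nearly absent from Runx1KO cells, whereas its range in ZebDKO cells overlapped that of control. In control, Zeb1 stood at 15.1, 14.2 and 15.6 TPM in the 3 libraries. In Runx1KO it stood at 0.1, 0.2 and 0.2 TPM. In ZebDKO it stood at 16.8, 16.6 and 14.8 TPM. All 3 Runx1KO libraries were thus far below every other library, whereas the ZebDKO and control ranges overlapped. On the log2(TPM + 1) scale, Zeb1 was lower in Runx1KO than in control by a log2 fold change of -3.77 (SE 0.0719, limma adjusted p = 2.78e-08, n = 3 per group). A gene was called when its log2 fold change exceeded 1 in size and its Benjamini-Hochberg adjusted p was under 0.05, and 5.1% of the 13067 genes tested were called lower in Runx1KO and 7.91% higher. Groups of 3 libraries that do not overlap were common in that comparison, at 73.7% of genes tested, so the size of the drop says more than the separation. The Zeb1 change was the 47th lowest of the 13067.

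In ZebDKO against control, the Zeb1 log2 fold change was 0.10 (SE 0.0638, limma adjusted p = 0.205), and it was not called. The median of all 12974 genes tested was -0.18 in that comparison, and centring it by median-ratio scaling moved the Zeb1 value to 0.28 with adjusted p = 0.00372, still inside the fold threshold. Among those genes, 7.49% were called higher and 7.28% lower, 81% had groups that did not overlap, and the split of 972 higher and 944 lower became 1181 and 665 under median-ratio scaling. The genotype of the ZebDKO libraries at Zeb1 can therefore not be read from this table. The paper reports PCR evidence that the targeted exons of Zeb1 and Zeb2 were deleted in ZebDKO clones. It also reports that Zeb1 protein was lost there by Western blot.

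Zeb2 fell in both knockouts, and further in Runx1KO. In control, Zeb2 stood at 5.5, 4.9 and 5.2 TPM. In Runx1KO it stood at 0.2 TPM in all 3 libraries. In ZebDKO it stood at 1.7, 1.8 and 1.6 TPM. The 3 genotypes did not overlap, with ZebDKO in between. The log2 fold change was -2.37 in Runx1KO (SE 0.0758, limma adjusted p = 3.06e-07) and -1.20 in ZebDKO (SE 0.0741, limma adjusted p = 5.2e-06), both against the same 3 control libraries. Under median-ratio scaling the ZebDKO value was -1.05, close to the fold threshold. The ratio of control to ZebDKO means was 3.059. With a pseudocount of 0.1 in place of 1, the Runx1KO values were -5.84 for Zeb1 and -4.14 for Zeb2, since levels near 0 weigh more on that scale, and every call held.

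**Figure D1:**
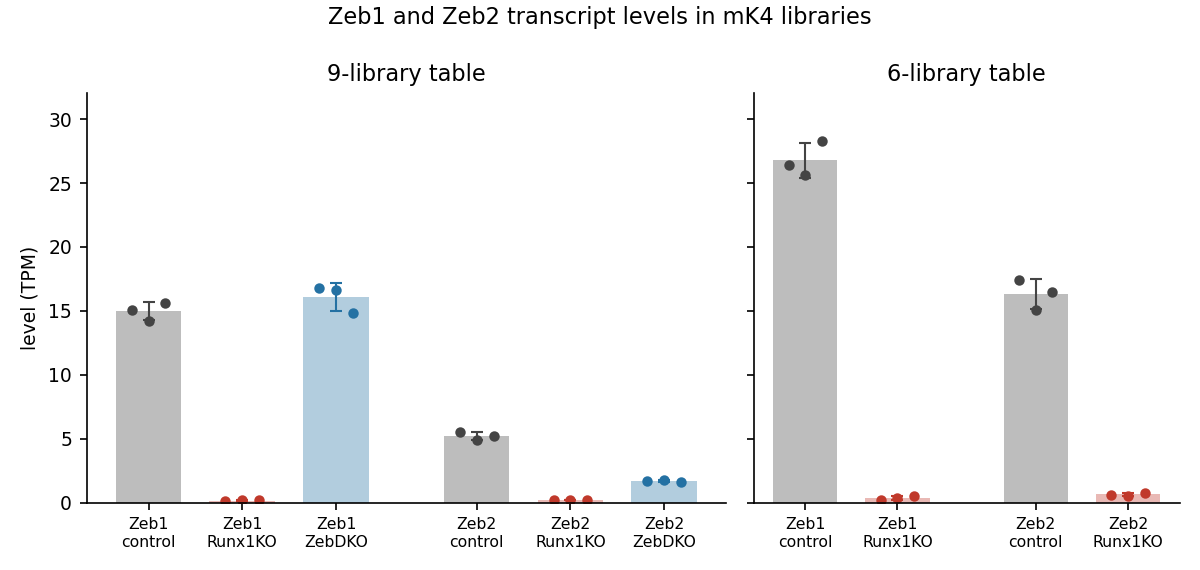
Zeb1 and Zeb2 levels in TPM, one point per library, with bars at the mean of 3 libraries and whiskers of 1 SD, for the 9-library table (left) and the 6-library table (right). Both genes sit at or below 0.77 TPM in every Runx1KO library, Zeb1 stays at 14.8 to 16.8 TPM in ZebDKO, and Zeb2 sits at 1.6 to 1.8 TPM there.

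A second deposited table gives the same control and Runx1KO samples at 2 decimals. There, Zeb1 stood at 26.42, 25.64 and 28.28 TPM in control and at 0.22, 0.34 and 0.52 TPM in Runx1KO. Zeb2 stood at 17.43, 15.1 and 16.47 TPM in control and at 0.62, 0.55 and 0.77 TPM in Runx1KO. The groups were again far apart, and at this precision the ratio of control to Runx1KO means was 74.39 for Zeb1 and 25.25 for Zeb2, against 89.8 and 26 in the first table, whose Runx1KO values are rounded to the nearest 0.1 TPM. The log2 fold changes were -4.36 for Zeb1 (SE 0.0955, limma adjusted p = 4.7e-09) and -3.40 for Zeb2 (SE 0.0874, limma adjusted p = 1.15e-08), where 4.99% of 12375 genes were called lower. The ratio of control levels in the second table to those in the first was 1.789 for Zeb1 and 3.141 for Zeb2, above its median of 0.7283 over 9403 genes, so the Zeb1 to Zeb2 ratio is tied to the table it is read from.

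The balance between the pair was compared within each library. The Zeb1 to Zeb2 TPM ratio was 2.75, 2.9 and 3 in the control libraries. It was 9.88, 9.22 and 9.25 in ZebDKO, where Zeb2 was called lower and Zeb1 was not, and 0.5, 1 and 1 in Runx1KO, where both values sat at the last printed digit. The difference log2(Zeb1 + 1) minus log2(Zeb2 + 1) averaged 1.365 ± 0.0561 in control, 2.659 ± 0.059 in ZebDKO and -0.0418 ± 0.0725 in Runx1KO (SD, n = 3). The ZebDKO libraries lay above every control library in this difference, and the exact two-sided permutation test gave p = 0.1, the smallest that 3 against 3 libraries can give. In Runx1KO, where both genes were called lower, levels near 0 force the difference to about 0, so it says nothing further about the pair.

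The knockouts were also compared directly, which does not use the control libraries. Zeb1 was lower in Runx1KO than in ZebDKO by a log2 fold change of -3.87 (SE 0.0783, limma adjusted p = 3.98e-08). For Zeb2 the value was -1.17 (SE 0.0875, limma adjusted p = 1.25e-05), so the Runx1KO level lay below the level left in ZebDKO (-2.58 with a pseudocount of 0.1). Of 13071 genes tested, 6.59% were called lower in Runx1KO and 9.2% higher, and 81.7% had groups that did not overlap. The median of all genes was 0.15 there, and the split of 1203 higher and 862 lower became 918 and 1053 under median-ratio scaling.

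**Figure D2:**
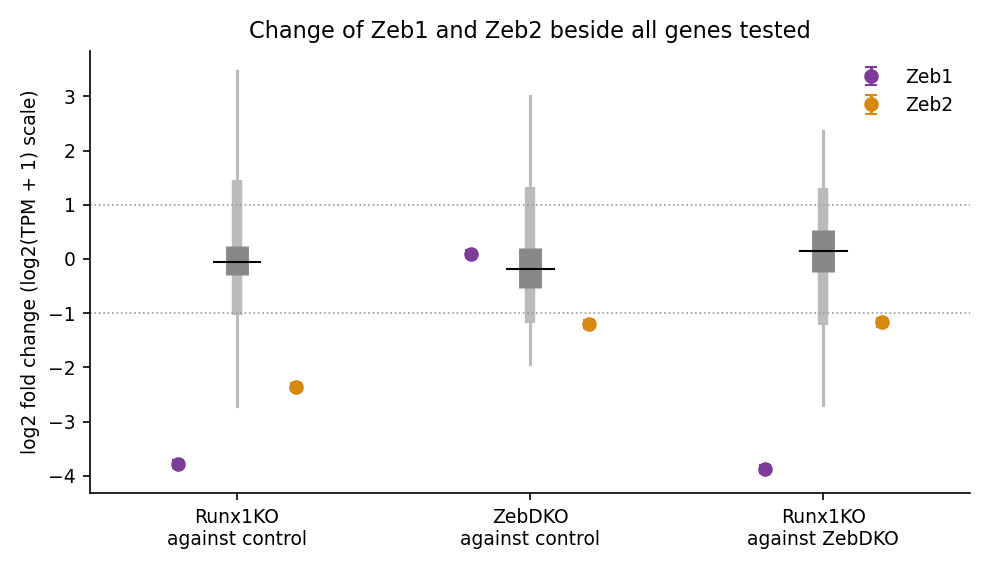
Log2 fold changes of Zeb1 and Zeb2 on the log2(TPM + 1) scale with 1 SE (y axis) in the 3 comparisons (x axis), beside all genes tested, drawn as the 25th to 75th percentiles (dark), the 5th to 95th (light), the 1st to 99th (thin) and the median (line); dotted lines mark the fold threshold. Zeb1 lies below the 1st percentile of -2.71 in Runx1KO against control and inside the 25th to 75th percentiles in ZebDKO against control.

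Zeb2os, named as the opposite-strand transcript of Zeb2, was the only other row whose symbol begins with Zeb. It stood at 1.1, 0.8 and 0.6 TPM in control, at 0, 0.2 and 0 TPM in Runx1KO, and at 1, 0.5 and 1.2 TPM in ZebDKO. The Runx1KO libraries were below all others, while ZebDKO overlapped control (log2 fold change 0.04, SE 0.173, limma adjusted p = 0.833). It passed the minimum of 1 TPM in 3 libraries only in the ZebDKO comparison, so Runx1KO has values and no test. Whether the libraries keep strand is not given in the sources used here, and without strand, reads of Zeb2 and Zeb2os cannot be told apart where they overlap.

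The deposited ATAC-seq lists sort 55649 open regions into Runx1-dependent ones that lose accessibility in Runx1KO cells (15.7% of all), Runx1-independent ones (67.4%) and Runx1KO-induced ones (16.9%). Within the Zeb1 gene and 200 kb on each side, 21 regions were listed, of which 10 were Runx1-dependent, 9 independent and 2 induced. The same window at Zeb2 held 13 regions, of which 8 were Runx1-dependent, 5 independent and 0 induced. The dependent share was thus 47.6% at Zeb1 and 61.5% at Zeb2 against 15.7% of all regions, as a description of these lists with no test, since they hold no value per sample. With windows of 100 and 500 kb it was 58.3% and 45.5% at Zeb1, and 61.5% and 57.1% at Zeb2.

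At Zeb1, the regions over the annotated transcript starts were all Runx1-dependent. One spans 5591274 to 5592359 on chromosome 18 and covers the gene start at 5591858 together with the start of the antisense gene Gm10125. The next, 5592583 to 5593547, covers a start at 5593532, and another region at 5603405 to 5604166 covers a start at 5603742. Starts at 5593600 and 5594201 lie in no listed region. A dependent region in a Zeb1 intron (5739881 to 5740856) lies 148.5 kb downstream of the gene start, and an upstream one (5397316 to 5397766) lies at -194.3 kb. Both induced regions lie far from the starts, at 167.4 kb in the gene body (5759058 to 5759384) and, beyond the 3' end, at 353.9 kb from the gene start.

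At Zeb2, the regions at the transcript starts were Runx1-dependent as well. The region from 44972590 to 44973138 on chromosome 2 covers the gene start at 44972915, in a non-coding exon. The region from 44964701 to 44966131 covers the annotated starts at 44965897, 44965984 and 44966007 and the first coding exon, and the expected ZebDKO deletion falls inside it, 174 bases downstream of the nearest start. The starts between 44966253 and 44969028 lie in no listed region. Of the other 6 dependent regions, 4 lie in introns at 8.6, 49.9, 68 and 97.5 kb from the gene start, and 2 lie past the 3' end at 139.9 and 156 kb.

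**Figure D3:**
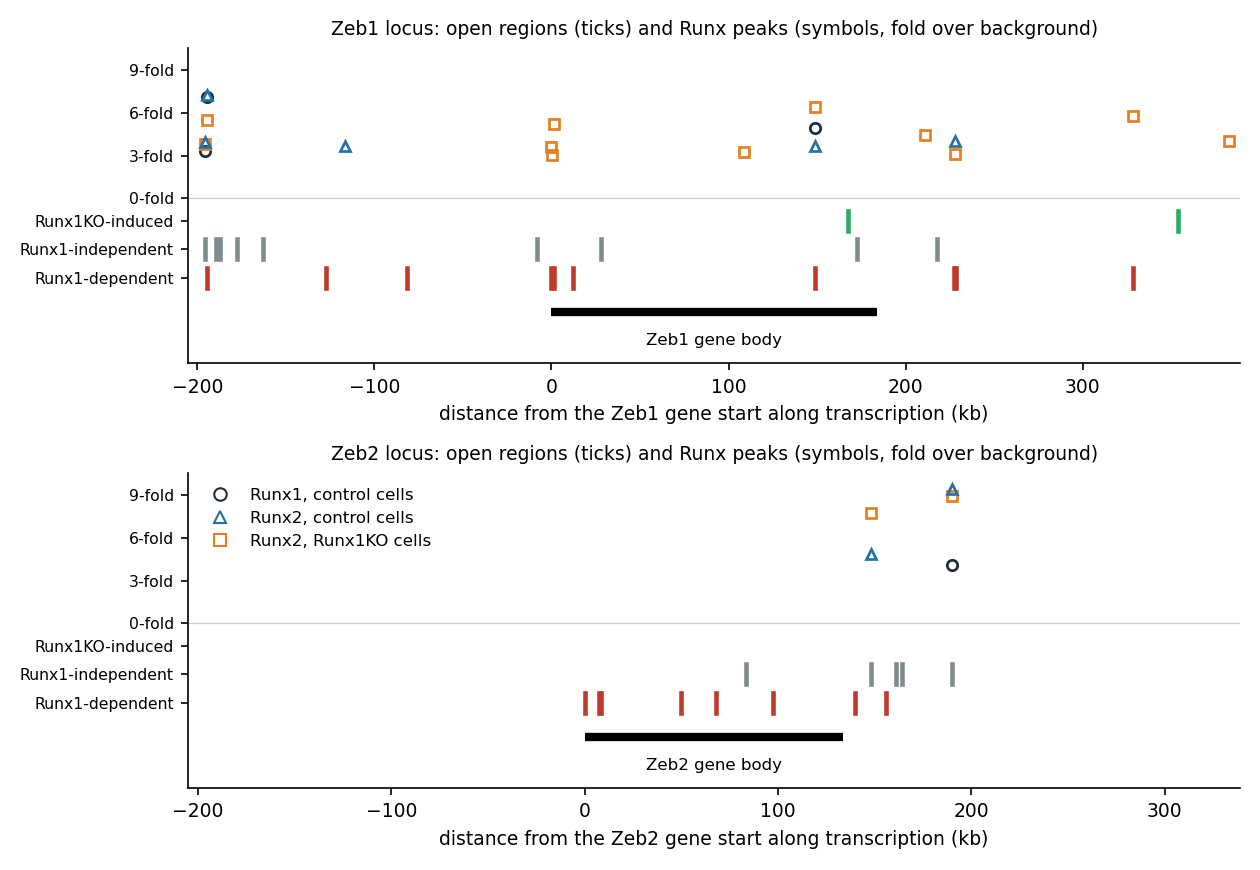
Open regions (ticks, one row per deposited class) and Runx ChIP-seq peaks (symbols, height giving fold over background) within 200 kb of Zeb1 (top) and Zeb2 (bottom), placed by distance in kb from the gene start along transcription. Runx1-dependent ticks sit at the start of both genes; at Zeb1 several Runx symbols stand over dependent ticks, and at Zeb2 they stand only over independent ones.

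The lists placed Runx peaks differently at the 2 loci, a description that was not tested. At Zeb1, the lists held 3 Runx1 peaks in control, 5 Runx2 peaks in control and 11 Runx2 peaks in Runx1KO cells. Of the 10 dependent regions there, 6 overlapped at least 1 of these peaks by 1 base or more, and genome-wide 26.2% of dependent and 28.2% of independent regions did. The upstream region at -194.3 kb carried a Runx1 peak in control (7.11-fold over background, 5397408 to 5397699), a Runx2 peak in control (7.28-fold) and a Runx2 peak in Runx1KO (5.53-fold). The intronic region at 148.5 kb carried a Runx1 peak of 4.96-fold and Runx2 peaks of 3.66-fold in control and 6.45-fold in Runx1KO. Median folds over all peaks were 4.45 in the Runx1 list, 4.195 in the control Runx2 list and 4.10 in the Runx2 list of Runx1KO cells, so the upstream site lies above the typical peak. Both regions were thus listed as losing accessibility while a Runx2 peak was listed in Runx1KO cells.

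At the Zeb1 starts themselves, Runx peaks appeared only in the Runx2 list of Runx1KO cells. These were at 5591685 to 5591794 (3.59-fold), 5592141 to 5592252 (3.07-fold) and 5592731 to 5593411 (5.24-fold). No Runx1 or Runx2 peak of control cells was listed there. The lists come from pooled replicates without an error, and a peak absent from one list can lie just under its cutoff, so whether binding differed was not tested. A Runx2 peak in Runx1KO also lay in the dependent region at 328.1 kb (5.77-fold), and Runx2 peaks of both genotypes lay in the one at 228.3 kb (4.00-fold in control, 3.08-fold in Runx1KO).

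At Zeb2, 0 of the 8 dependent regions overlapped a Runx peak of any list, against 26.2% of all dependent regions. So few regions are not set apart from that share by a count of 0. Windows of 100 and 500 kb held the same 8 regions, and an overlap of 50% is stricter than 1 base. Neither setting could therefore raise the 0. A peak absent from a list can lie just under its cutoff, so whether these regions are unbound was not tested. The lists held 1 Runx1 peak in control and 2 Runx2 peaks in each genotype, and all lay in independent regions. The Runx1 peak (44782656 to 44782786, 4.09-fold) lies at the start of the neighbouring gene Gtdc1, 190.2 kb from the Zeb2 start, with Runx2 peaks of 9.43-fold in control and 8.94-fold in Runx1KO over it. The other Runx2 site lies between the genes at 148 kb, past the 3' end of Zeb2, with 4.89-fold in control and 7.72-fold in Runx1KO and no Runx1 peak. It stayed open in Runx1KO cells by its class. The paper reports both Runx1 and Runx2 at a potential enhancer downstream of Zeb2 that loses accessibility in Runx1KO cells. Its coordinates are not given in the sources used here. Within 500 kb of Zeb2, 0 of the 8 listed dependent regions overlap a Runx peak. By these lists, no region there therefore has the features the paper describes.

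The Runx motif TGTGGT was searched on both strands in the central 300 bases of every region, where 35.5% of all dependent, 19.8% of independent and 21% of induced regions hold it. At Zeb1, 5 of 10 dependent and 2 of 9 independent regions held it. At Zeb2, 3 of 8 dependent regions and 1 of 5 independent regions held it. The 4 Zeb2 windows with a match are shown on the plus strand, with each match (TGTGGT or its reverse complement) in capitals, since the single Runx2-bound one and the 3 that carry no listed peak can be compared directly.
Independent, Runx2 peaks, chr2:44824807-44825106: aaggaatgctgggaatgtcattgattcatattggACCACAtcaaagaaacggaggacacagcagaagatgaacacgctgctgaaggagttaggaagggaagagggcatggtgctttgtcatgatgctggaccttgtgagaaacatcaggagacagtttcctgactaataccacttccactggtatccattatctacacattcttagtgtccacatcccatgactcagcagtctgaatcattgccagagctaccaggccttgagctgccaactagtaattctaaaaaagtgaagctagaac
Dependent, past the 3' end, chr2:44816718-44817017: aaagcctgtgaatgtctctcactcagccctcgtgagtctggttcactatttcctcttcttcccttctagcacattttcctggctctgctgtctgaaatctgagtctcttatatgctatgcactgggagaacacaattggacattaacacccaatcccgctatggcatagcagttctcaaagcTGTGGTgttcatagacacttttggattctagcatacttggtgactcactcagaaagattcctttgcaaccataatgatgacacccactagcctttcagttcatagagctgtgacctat
Dependent, past the 3' end, chr2:44832876-44833175: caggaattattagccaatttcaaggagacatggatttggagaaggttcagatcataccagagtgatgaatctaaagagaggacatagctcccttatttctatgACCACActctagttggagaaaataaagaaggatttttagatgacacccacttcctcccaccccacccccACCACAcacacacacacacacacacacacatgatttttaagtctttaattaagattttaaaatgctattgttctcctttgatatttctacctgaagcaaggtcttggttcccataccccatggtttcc
Dependent, intron, chr2:44875241-44875540: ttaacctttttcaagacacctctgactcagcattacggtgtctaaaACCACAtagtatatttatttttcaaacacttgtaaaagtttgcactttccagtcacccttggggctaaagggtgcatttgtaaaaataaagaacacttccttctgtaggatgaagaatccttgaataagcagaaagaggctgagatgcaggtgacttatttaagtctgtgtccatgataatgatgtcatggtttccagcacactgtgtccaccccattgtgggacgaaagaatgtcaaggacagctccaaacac
In the bound window the match (44824841 to 44824846) lies 48 bases from the Runx2 summit in control and 27 bases from it in Runx1KO. In the dependent window from 44832876, one of the matches (44833048 to 44833053) opens a run of CA repeats. The Zeb motifs CAGGTA and CAGGTG, on both strands, lay in the central 300 bases of 2 of 10 dependent regions at Zeb1 and 3 of 8 at Zeb2, against 18.7% of all dependent regions, and in both induced regions at Zeb1, against 62.7% of all induced ones. A match is a run of letters and not a measured site.

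The genes tested near Zeb1 and Zeb2 stayed inside the fold threshold in both knockouts. Of the annotated genes that start within 1 Mb, 8 at Zeb1 and 2 at Zeb2 are in the table. The nearest expressed neighbour of Zeb2, Gtdc1, a glycosyltransferase-like gene, stood at 1.9, 1.7 and 1.7 TPM in control and 3, 2.7 and 3 TPM in Runx1KO, a log2 fold change of 0.50 (SE 0.0751) that stayed inside the fold threshold. Around Zeb1, Svil, which encodes an actin-binding membrane protein, changed by 0.14, and Zfp438, a zinc finger gene, by -0.12 in Runx1KO. On the other side, Arhgap12 changed by -0.48, Kif5b, a kinesin heavy chain, by -0.33 and Epc1, a chromatin gene, by -0.73, with Mir1893 inside Epc1 at -0.26. None of these was called in either knockout, and in ZebDKO their log2 fold changes ran from -0.83 at Arhgap12 to 0.42 at Gtdc1. Over all genes tested, 7.91% were called higher and 5.1% lower in Runx1KO, and 7.49% and 7.28% in ZebDKO. So few genes are therefore not set apart by the lack of a call. Arhgap12, Kif5b, Epc1 and Mir1893 fell in both knockouts (limma adjusted p of 0.00944 or less), while Gtdc1 rose in both. The median of all genes tested was -0.06 in Runx1KO and -0.18 in ZebDKO. Groups that did not overlap made up 73.7% and 81% of genes tested, so direction alone does not set these neighbours apart. Gm10125, which overlaps the Zeb1 start, averaged 0.2 TPM in control, 0 in Runx1KO and 0.2 in ZebDKO, under the filter. 1700019E08Rik on the Zeb2 side averaged 0.3, 1.733 and 0.6333 TPM, also under the filter in both comparisons with control.

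The genes whose pattern over the 9 libraries was most like each member were ranked by Pearson r of log2(TPM + 1) among 11423 genes, as a description in which the points share 3 genotypes. For Zeb1 they were Ptgs2, a prostaglandin synthase (r = 0.9995), Elfn1 (0.9994), Ifitm3 (0.9991), the matrix gene Tnc (0.9990) and Egln3, a prolyl hydroxylase (0.9989). For Zeb2 they were Pkdcc (0.9997), the integrin gene Itga9 (0.9994), Gulp1 (0.9985), Epc1 (0.9985) and the homeobox gene Pknox2 (0.9983). Tnc averaged 86.67 TPM in control, 1.133 in Runx1KO and 100.2 in ZebDKO, as Zeb1 did with a low in Runx1KO alone. Pkdcc, a secreted kinase gene, averaged 15.8, 0 and 3 TPM, as Zeb2 did with ZebDKO in between. Zeb1 and Zeb2 correlated with each other at r = 0.8509, in place 1243 of the order for Zeb1 and 1289 of that for Zeb2.

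The partners through which Zeb factors act were present in every genotype. Of 13 corepressor genes, among them Ctbp1, Ctbp2, the histone deacetylases Hdac1 and Hdac2 and the NuRD subunits Chd4 and Mta2, 0 were called in either comparison with control. Over all genes tested, 7.91% were called higher and 5.1% lower in Runx1KO, and 7.49% and 7.28% in ZebDKO, so a list of this size is not set apart by a count of 0. Between the knockouts Mta1, a NuRD subunit, was called higher in Runx1KO (1.02, SE 0.0477), a call that median-ratio scaling removed (0.88). Ctbp1 averaged 42.47 TPM in control, 39.93 in Runx1KO and 45.67 in ZebDKO. Ctbp2 averaged 29.4, 31.43 and 27.23 TPM. The median log2 fold change of the list was 0.02 in Runx1KO and 0.03 in ZebDKO, against -0.06 and -0.18 over all genes. Of the 3 coactivator genes Ep300, Kat2b and Yap1, 0 were called, with log2 fold changes between -0.37 and 0.40 over both comparisons.

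Of 9 genes of TGF-beta and Smad input, 1 was lower in Runx1KO and 1 higher in ZebDKO, near the shares of all genes called (5.1% lower in Runx1KO, 7.49% higher in ZebDKO). The list medians were 0.02 and 0.01, against -0.06 and -0.18 over all genes. Tgfb2, a TGF-beta ligand, averaged 17.03 TPM in control, 2.6 in Runx1KO and 22.1 in ZebDKO, a log2 fold change of -2.33 in Runx1KO (SE 0.0831). Smad7, an inhibitory Smad, averaged 20.47, 26.9 and 74.47 TPM, a log2 fold change of 1.82 in ZebDKO (SE 0.0779). Under median-ratio scaling Tgfb1, which has a log2 fold change of 0.98 in ZebDKO, was called as well. Of the Runx family, Runx2 averaged 5.467 TPM in control, 3.733 in Runx1KO and 3.3 in ZebDKO, Cbfb averaged 78.2, 73 and 58.03 TPM, and 0 of the 3 tested of 4 were called against control. Runx1 differed between the knockouts (1.47, SE 0.054).

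Of 8 other transcription factors of epithelial to mesenchymal transition, 5 passed the filter. Their medians were -0.54 in Runx1KO and 0.19 in ZebDKO, against -0.06 and -0.18 over all genes. In Runx1KO 1 was called higher and 1 lower, and in ZebDKO 1 higher and 0 lower. Over all genes tested, 7.91% were called higher and 5.1% lower in Runx1KO, and 7.49% and 7.28% in ZebDKO. With 5 genes, these counts cannot be set apart from those shares. Snai3, a Snail family repressor, rose in both knockouts, from 1.533 TPM in control to 30.3 in Runx1KO (log2 fold change 3.67, SE 0.198) and 11.67 in ZebDKO (2.37, SE 0.198). Twist2, a basic helix-loop-helix factor, fell from 914.7 to 350.8 TPM in Runx1KO (-1.38, SE 0.0260) and had a log2 fold change of -0.68 in ZebDKO, inside the threshold. Snai1, Snai2 and Tcf4 were not called against control, and Twist1, Prrx1 and Foxc2 were under the filter. The near loss of RNA in Runx1KO that Zeb1 and Zeb2 showed was thus not seen in the 5 tested, whose largest fall was that of Twist2.

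Of 10 factors that oppose Zeb in epithelia, 7 were tested in Runx1KO and 4 rose, and 4 were tested in ZebDKO and 1 rose. In each comparison 4 averaged at least 1 TPM in both groups, of which 1 rose. The shares of all genes called higher were 7.91% in Runx1KO and 7.49% in ZebDKO, and 4 genes are too few to be set apart from them. Elf3, an epithelial Ets factor, averaged 32.03 TPM in control, 121 in Runx1KO and 128.3 in ZebDKO, with log2 fold changes of 1.89 (SE 0.0606) and 1.97 (SE 0.0674). Grhl2, a Grainyhead-like activator of epithelial genes, averaged 0.1 TPM in control, 4.967 in Runx1KO and 1.133 in ZebDKO. It rose in Runx1KO (2.44, SE 0.0712), was under the filter in ZebDKO against control, and differed between the knockouts (1.49, SE 0.0976). Ovol1 and Esrp1 were also called in Runx1KO, from levels under 1 TPM in control (the log2 fold change of Ovol1 was 0.87 in the 6-library table, under the threshold), and Ovol2 was listed at 0 in all 9 libraries. Of the genes of the miR-200 family and Mir205, 6 were in the table and 5 were listed at 0 in every library, but libraries made from poly(A) RNA do not measure mature microRNAs.

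Of 35 epithelial genes that Zeb factors are known to repress, 34 were in the table. In Runx1KO 17 were called higher, 3 were tested and not called (Muc1, Cdh3 and Rab25) and 14 were under the filter. In ZebDKO 20 were called higher, 2 were tested and not called (Tjp3 and Rab25) and 12 were under the filter, and 0 were called lower in either knockout. Many passed the filter only because they are high in the knockout: 12 averaged at least 1 TPM in both groups in each comparison, of which 9 rose in Runx1KO and 10 in ZebDKO. Over all genes tested, 7.91% were called higher in Runx1KO and 7.49% in ZebDKO. Marveld2 and Mal2 were listed at 0 in all 9 libraries. Krt8, an epithelial keratin, averaged 2.433 TPM in control, 2353 in Runx1KO and 1050 in ZebDKO (log2 fold changes 9.46, SE 0.178, and 8.30, SE 0.176). Cldn4, a tight junction claudin, averaged 0.1333, 231.6 and 47.3 TPM (7.70, SE 0.13, and 5.43, SE 0.136), and Crb3, a polarity gene, 0.6, 57.63 and 55.13 TPM.

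Single members of this list differed between the knockouts. In the direct comparison, 8 of 24 tested members were higher in Runx1KO and 4 were lower, against 9.2% and 6.59% of all genes tested. The list median was 0.12, near the 0.15 over all genes. Of the 20 members at 1 TPM or more in both groups, 8 were higher and 1 was lower. The others called lower, Epcam among them, passed the filter through ZebDKO alone. Krt19, a keratin, averaged 0.6667 TPM in control, 87.03 in Runx1KO and 4.533 in ZebDKO, a direct difference of 3.99 (SE 0.0577). Epcam, an epithelial adhesion gene, was listed at 0 in all control and Runx1KO libraries and averaged 27.93 TPM in ZebDKO, a direct difference of -4.85 (SE 0.0596). St14, Muc1 and Itgb6 were the others that were lower in Runx1KO than in ZebDKO. Cdh1, which encodes E-cadherin and is a classical Zeb target, averaged 0.1, 0.2 and 0.5 TPM and stayed under the filter in each comparison.

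Of 20 mesenchymal genes, 15 were tested against control in each knockout, and 7 were called lower in Runx1KO and 3 in ZebDKO, where 1 was higher. Of the 11 at 1 TPM or more in both groups, 4 fell in Runx1KO, and of 12 such genes 1 fell and 1 rose in ZebDKO. Over all genes tested, 5.1% were called lower in Runx1KO, and 7.28% lower and 7.49% higher in ZebDKO. The ZebDKO counts among those 12 are thus near the shares of all genes. S100a4, a calcium-binding protein gene of fibroblasts, averaged 1305 TPM in control, 354.6 in Runx1KO and 235 in ZebDKO (-1.88, SE 0.0311, and -2.47, SE 0.0440). Tnc, a matrix glycoprotein gene, fell in Runx1KO (-5.36, SE 0.0700) and was not called in ZebDKO (0.21, SE 0.0549). Acta2, a smooth muscle actin gene, averaged 7.133, 0.1667 and 20.87 TPM, lower in Runx1KO (-2.80, SE 0.0820) and higher in ZebDKO (1.43, SE 0.0610). In the direct comparison Tnc, Acta2, Fn1 and Col5a1 were lower in Runx1KO, and 0 of 12 tested were higher. Acta2 passed the filter through ZebDKO alone, and of the 11 at 1 TPM or more in both groups, 3 were lower. Over all genes tested there, 6.59% were called lower and 9.2% higher. Vim, the intermediate filament of mesenchymal cells, averaged 2803, 2806 and 2089 TPM and was not called. In bulk RNA, fewer cells of a type and less RNA per cell cannot be told apart.

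**Figure D4:**
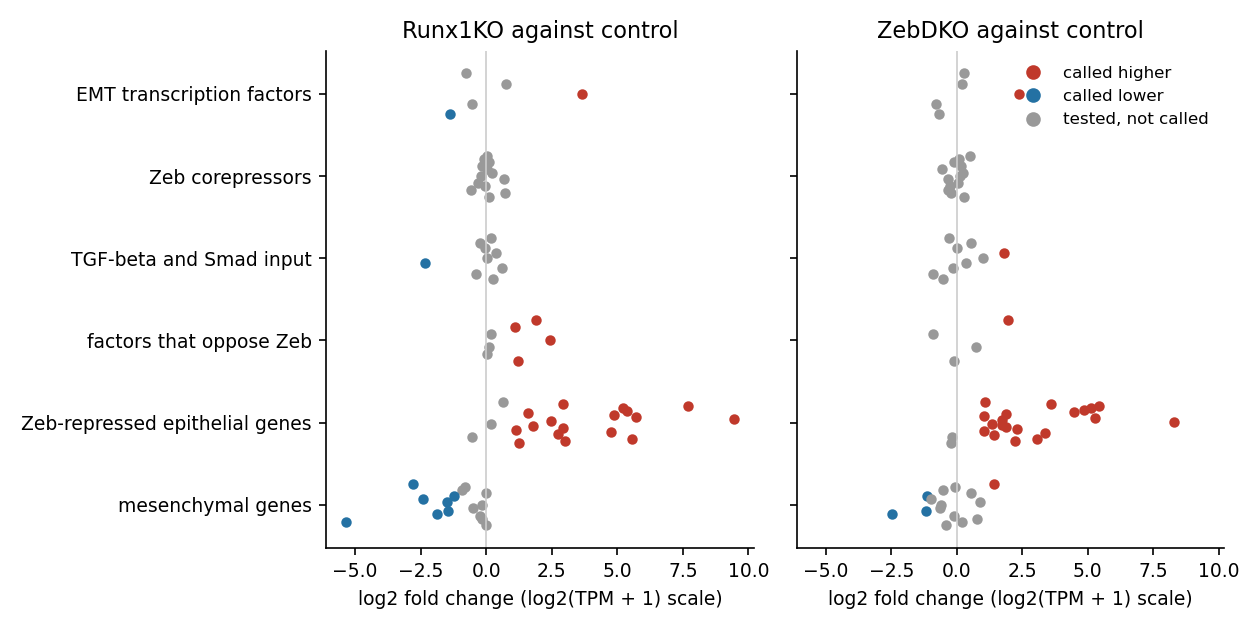
Log2 fold changes on the log2(TPM + 1) scale (x axis) of the tested members of 6 gene lists (rows, one point per gene) in Runx1KO (left) and ZebDKO (right) against control, coloured by call. Corepressor genes cluster around 0, and the tested epithelial genes lie mostly to the right in both panels, up to 9.46 and 8.30 at Krt8.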

How the data were processed

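RNA-seq, ATAC-seq and Runx ChIP-seq of mK4 cells were analysed from the deposited files. Per the study's methods, adapters were removed with Trim Galore, alignment was to mm9, and duplicate reads were dropped. The authors deposited TPM values per gene in a table of 9 libraries (1 decimal) and one of 6 libraries (2 decimals), which were not combined. Peaks were called with MACS2, and the ChIP-seq peaks on pooled replicates, less peaks found for Runx1 in Runx1KO cells. The deposited peak lists give a fold over background (a ratio) and a −log10 of the q-value. The deposited ATAC-seq lists also hold a fold change and a −log10 p column of the authors' own comparison, which were not used. TPM is not a count, so log2(TPM + 1) was fitted with limma 3.58.1 in R 4.3.3, with a trend in the prior variance, for genes at 1 TPM or more in 3 of the 6 libraries compared. The fit was tested on simulated data. Regions and peaks were taken with their middle in the gene or within 200 kb, in GENCODE annotation of mm9. Named genes were the members, rows beginning with Zeb, the 5 genes most like each member (with a group mean of 5 TPM or more), table genes starting within 1 Mb, and lists with the 3 largest called changes as examples. The members and lists were chosen with earlier results of these data known. Library totals carry no depth, so no counting interval is given. Replicate numbers did not pair libraries. Alternatives are given in the closing section.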

Additional observations from a re-analysis of the deposited data

How the results depend on the processing

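Zeb1 and Zeb2 kept their direction and their call in all 3 comparisons under every alternative that gave a value: pseudocounts of 0.1 and 0.5, no filter, 5 TPM in 3 libraries, median-ratio and quantile scaling, 1 fit over 9 libraries, no trend, and, for Runx1KO against control, the 6-library table. With 5 TPM in 3 libraries Zeb2 was not tested, since control reached it in 2. The Zeb1 value in Runx1KO against control ran from -5.84 to -3.73 and that of Zeb2 from -4.14 to -2.33, and Zeb2 in ZebDKO from -1.56 to -1.05 (adjusted p from 2.87e-07 to 0.000161). Leaving out each library gave -3.81 to -3.73 and -2.40 to -2.33 in Runx1KO, 0.06 to 0.15 and -1.23 to -1.16 in ZebDKO, and -3.92 to -3.83 and -1.20 to -1.14 between the knockouts. Only the filter at 5 TPM moved a count of calls by over 1.5 times, to 442 genes lower in Runx1KO than in control and 566 lower than in ZebDKO, with fewer genes tested.

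With a replicate block, same-numbered libraries being treated as paired, the log2 fold changes were unchanged at -3.77 and -2.37 in Runx1KO, and adjusted p rose to 6.28e-06 for Zeb1 and 2.95e-05 for Zeb2. Deviations of the 9 same-numbered pairs correlated between -0.0495 and 0.0399, so the numbers do not pair the libraries, and no call of either member changed. Counts with the block were 1040 higher and 669 lower in Runx1KO and 977 and 945 in ZebDKO.

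With a pseudocount of 0.1, chosen after seeing the data, the Zeb1 minus Zeb2 difference moved to -1.70 in Runx1KO and 1.66 in ZebDKO. Left-out libraries gave -1.44 to -1.36 and 1.26 to 1.32. With a window of 100 kb, the Zeb1 locus held 4 independent and 1 induced regions, 1 Runx1 peak, and 2 and 7 Runx2 peaks in control and Runx1KO. With 500 kb it held 16 independent regions, 11 Runx1 peaks, and 14 and 20 Runx2 peaks. Counts of list members stayed within 1.5 times in 209 of 216 cases, and named genes kept their call in 1553 of 1563. The exceptions were Ovol1, Mta1, Grhl1, Llgl2 and Snai1, whose fold dropped under the threshold. A cutoff on the authors' −log10 column of the ATAC-seq lists was not run, since those values are their own comparison.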
